A study of Homo sapiens with 6 samples.

Results

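The 10 genes described here encode the leukocyte integrin chains ITGA4, ITGA5, ITGAL, ITGAM, ITGAX, ITGB1, ITGB2 and ITGB7, the immunoglobulin family receptor PECAM1, and PXN, the focal adhesion adaptor paxillin. They were taken by name, through their Ensembl identifiers, from 78652 genes, and all 10 passed the filter on low counts. RNA came from THP-1 cells, a line grown from a human monocytic leukaemia. The 3 EV libraries were from cells stably transduced with empty vector, and the 3 PTX4-OE libraries from cells stably transduced with a construct for overexpression of PTX4, which encodes pentraxin 4. Replicates are numbered 1 to 3 in each group, were called independent by the submitters, and carry 1 batch label. The sources used here do not say whether each line was a clone or a pool, nor which promoter drove the construct.

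Integrins are receptors made of 1 alpha and 1 beta chain, and the pairing sets what they bind. ITGB2 (CD18) joins ITGAL to form LFA-1, which binds ICAM proteins, ITGAM to form Mac-1, and ITGAX to form p150,95; both of the latter bind complement fragments. ITGB1 joins ITGA4 to form VLA-4, a receptor for VCAM1 and fibronectin, and ITGA5 to form the classical fibronectin receptor, while ITGB7 joins ITGA4 to form the gut-homing receptor for MADCAM1. In monocytes these receptors hold the cell on the vessel wall, PECAM1 serves its passage between endothelial cells, and paxillin docks signalling proteins at the integrin tails.

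The chains meet proteins such as talin, kindlin and paxillin through short tails inside the cell, and the coding DNA of these tails is shown here. Each stretch is from the Ensembl canonical transcript of GENCODE release 44 on GRCh38, reads 5′ to 3′ on the coding strand, and ends with the stop codon. In the alpha chains the capitals mark the codons of the membrane-proximal GFFKR motif, which all 5 share.
ITGA4 (chr2:181535435-181535527, plus strand): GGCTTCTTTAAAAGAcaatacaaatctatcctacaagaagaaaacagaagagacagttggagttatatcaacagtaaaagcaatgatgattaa
ITGA5 (chr12:54396293-54396373, minus strand): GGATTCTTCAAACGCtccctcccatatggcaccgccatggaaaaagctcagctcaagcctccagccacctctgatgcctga
ITGAL (chr16:30521495-30521665, plus strand): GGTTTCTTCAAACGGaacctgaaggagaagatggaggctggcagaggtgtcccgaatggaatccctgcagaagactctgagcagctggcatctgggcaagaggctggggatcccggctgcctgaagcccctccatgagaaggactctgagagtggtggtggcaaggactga
ITGAM (chr16:31331639-31331707, plus strand): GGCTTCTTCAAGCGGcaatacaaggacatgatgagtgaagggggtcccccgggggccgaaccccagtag
ITGAX (chr16:31381806-31381907, plus strand): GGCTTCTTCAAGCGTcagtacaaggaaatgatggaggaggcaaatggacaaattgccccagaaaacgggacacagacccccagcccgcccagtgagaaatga
Each alpha tail lies in the last coding exon of its gene. From the motif to the stop the tails hold 22 codons in ITGAM, 26 in ITGA5, 30 in ITGA4, 33 in ITGAX and 56 in ITGAL. The tail of ITGA4 is known for binding paxillin directly.

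In the beta chains the capitals mark the codons of a membrane-proximal acidic and basic motif and of the NPxY or NPxF motifs, to which talin and kindlin bind. Each beta tail is split by an intron between exons 15 and 16, which the coordinates include.
ITGB1 (chr10:32901570-32908424, minus strand): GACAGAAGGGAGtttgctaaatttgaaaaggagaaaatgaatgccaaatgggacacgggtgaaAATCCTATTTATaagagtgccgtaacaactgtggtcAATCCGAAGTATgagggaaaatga
ITGB2 (chr21:44886368-44886792, minus strand): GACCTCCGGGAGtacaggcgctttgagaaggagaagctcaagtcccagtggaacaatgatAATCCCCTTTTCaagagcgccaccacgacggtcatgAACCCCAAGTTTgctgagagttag
ITGB7 (chr12:53191556-53191915, minus strand): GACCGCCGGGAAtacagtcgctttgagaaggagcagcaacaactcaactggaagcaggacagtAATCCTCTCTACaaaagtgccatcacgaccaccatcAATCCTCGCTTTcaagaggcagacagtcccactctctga
All 3 hold 2 such motifs, over 40 codons in ITGB1, 39 in ITGB2 and 45 in ITGB7.

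The total expected count per library was 29670641 to 37718207. As the labels state, PTX4 was high in PTX4-OE, with 24633, 14398 and 15782 expected counts, against 0, 3 and 4 in EV (values here and below run from replicate 1 to 3). The mitochondrial share of counts was 2.79% in PTX4-OE replicate 1 against 4.75% to 5.91% elsewhere. Monocytic markers summed to 628 to 688 TPM in EV and 595 to 710 TPM in PTX4-OE, with SPI1 highest. Of the 10 markers 8 had a mean of 1 TPM or more, while CD4 was near 0. CSF1R, on this list, was called lower in the fit with replicate pairs (log2 fold change -0.30, edgeR adjusted p = 0.0385). That fit called 0.238% of all genes lower, and the fit without pairs did not call CSF1R. PECAM1 also marks endothelium and platelets: the 6 endothelial markers summed to at most 0.26 TPM in EV and 0.35 in PTX4-OE. The 5 megakaryocyte and platelet markers summed to 1.79 to 3.31 TPM in EV and 1.38 to 3.38 in PTX4-OE, with ITGA2B highest at a mean of 1.30 TPM, GP1BA also detected and PF4 at 0 counts in every library. Their part in the level of PECAM1 was not tested. Of 7 T cell markers CD3D, CD3E, CD3G, CD2 and CD8A had 0 counts in every library, while TRAC had a mean of 2.60 TPM and the list summed to 1.78 to 3.01 TPM in EV and 2.30 to 3.28 in PTX4-OE.

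Transcript levels are in TPM, which is scaled for gene length and can be compared between genes. ITGB2 was the most abundant member at 135 ± 20.4 TPM (SD, n = 6 libraries), followed by ITGAL at 97.1 ± 18.3, ITGA5 at 65.2 ± 7.07 and ITGB1 at 59.9 ± 7.96. ITGA4 stood at 34.8 ± 5.40, PECAM1 at 26.1 ± 2.93, PXN at 11.5 ± 1.39 and ITGAX at 9.68 ± 3.57. ITGAM, the alpha chain of Mac-1, was low at 2.84 ± 0.40 TPM, and ITGB7 was lowest at 0.41 ± 0.29. The library ranges of neighbours overlapped for ITGB2 and ITGAL, ITGA5 and ITGB1, ITGA4 and PECAM1, and PXN and ITGAX, and did not overlap for the other neighbours. Within libraries ITGA5 was above ITGB1 and ITGA4 above PECAM1 in 6 of 6, ITGB2 above ITGAL in 5 of 6 and PXN above ITGAX in 4 of 6. THP-1 cells thus held LFA-1 and both fibronectin receptor alpha chains at a mean of over 30 TPM, and the alpha chain of Mac-1 and the beta chain of the gut-homing receptor at a mean of under 4 TPM.

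**Figure D1:**
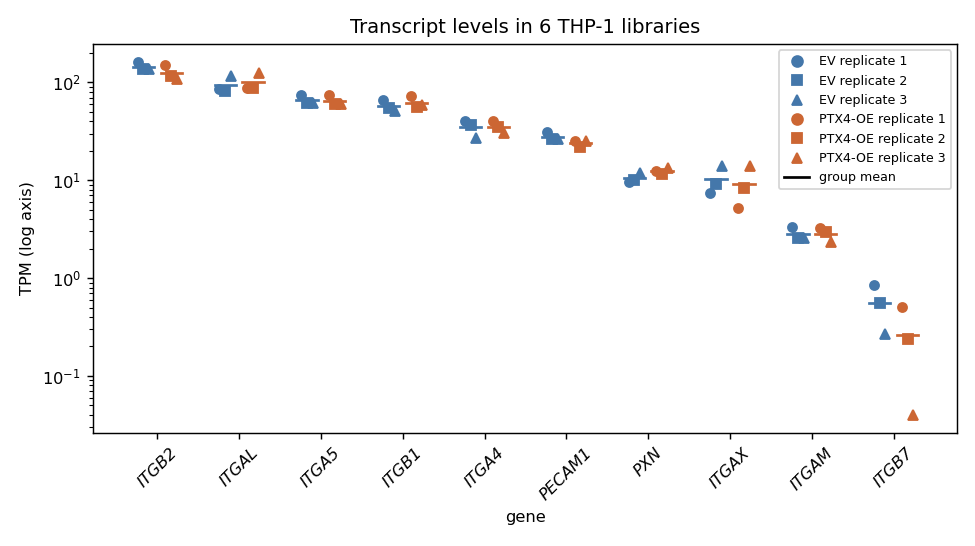
Transcript level in TPM (log axis) of the 10 genes in each library, ordered by mean; colours give the group, symbols the replicate number and lines the group mean. ITGB2 is highest at a mean of 135 TPM and ITGB7 lowest at 0.41, and the groups lie close together for every gene but ITGB7, whose PTX4-OE replicate 3 stands at 0.04 TPM.

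The comparison of PTX4-OE with EV asked which transcripts PTX4 overexpression changes. None of the 10 genes passed it: the edgeR quasi-likelihood test, adjusted over 17625 genes, called 0 members, with an adjusted p of 0.9999 for each. Of all genes tested, 0.00567% were called higher, which was PTX4 alone, and 0.0% lower. Nor had any member an unadjusted p under 0.05 in that fit, which 0.743% of all genes had, and DESeq2 called 0 of the 10 and limma on log2(TPM + 1) 0 of the 9 it tested. Same-numbered libraries deviated from their group means together, so pairs 1 to 3 are also compared. With the pairs as blocks, edgeR called 5 genes higher (0.0284%), PTX4 included, and 42 lower (0.238%), again with 0 members among them. An unadjusted p under 0.05 with pairs was reached by 5 members, 4 lower and 1 higher, against 4.43% and 4.36% of all genes. The genes were chosen with earlier results of these data known, so that count is a description. The median log2 fold change of the members with pairs was -0.049, against 0.0053 for all genes.

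Differences between the numbers were wider than those between the groups for all members but PECAM1 and PXN. Normalised CPM below is counts per 1000000 with edgeR's TMM scaling, which serves comparison of 1 gene between libraries. The means of the numbered pairs spanned 3.22 on the log2 scale for the sparsely counted ITGB7, 1.09 for ITGAX, 0.58 for ITGA4, 0.51 for ITGAM, 0.45 for ITGB2, 0.43 for ITGB1, 0.41 for ITGAL and 0.38 for ITGA5. ITGAX and ITGAL were highest in both libraries of number 3, while ITGA4, ITGA5, ITGAM, ITGB1, ITGB2 and ITGB7 were highest in number 1 and lowest in number 3 as a pair mean. For PECAM1 the span was 0.21, under its mean group difference, and for PXN 0.12.

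**Figure D2:**
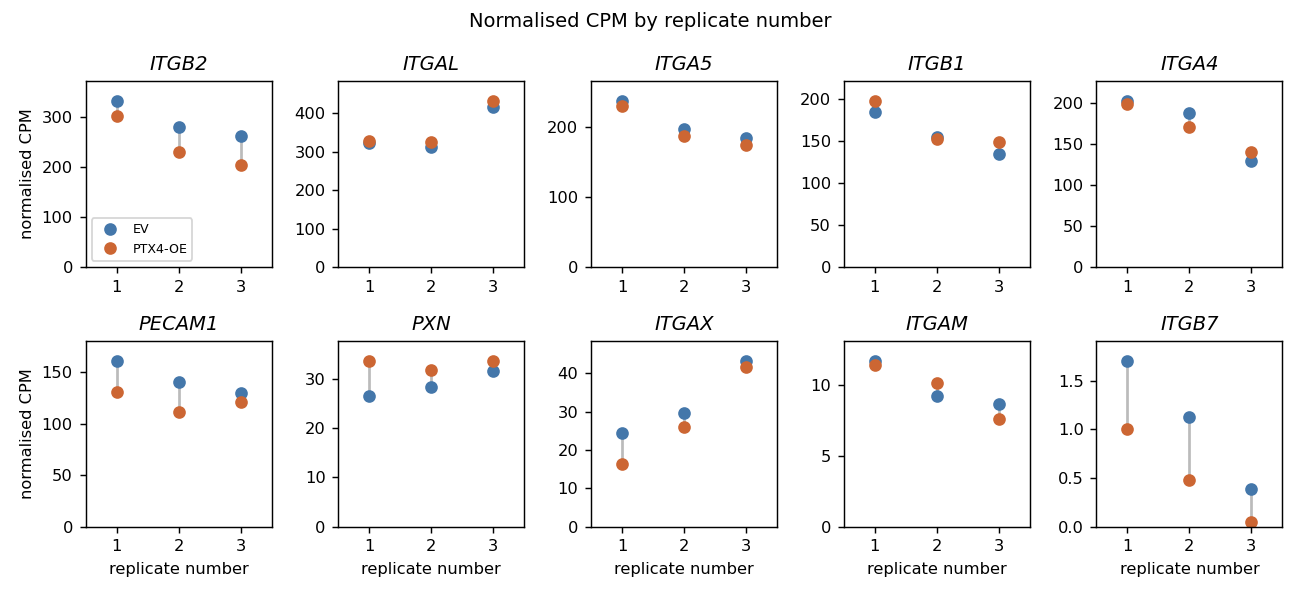
Normalised CPM (linear axis from 0) of each gene by replicate number, with a line joining the EV and PTX4-OE library of that number. ITGAX stands at 43.3 and 41.6 in number 3 and at 24.4 and 16.2 in number 1, a wider gap than between the groups, while PECAM1 and ITGB2 are lower in PTX4-OE at every number.

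ITGB2, the beta chain that its CD11 alpha partners need to reach the cell surface (ENSG00000160255.19, chromosome 21, 44885953 to 44931989, minus strand, GRCh38), had the smallest p of the members with pairs. Its normalised CPM was 331, 279 and 261 in EV and 301, 230 and 203 in PTX4-OE. The PTX4-OE library was the lower one at each number, but PTX4-OE replicate 1 stood above EV replicates 2 and 3, so the groups overlapped. The log2 difference was -0.14, -0.28 and -0.36 in pairs 1, 2 and 3. With pairs the log2 fold change was -0.26 (SE 0.053, 95% interval -0.37 to -0.15), a level 16.5% lower, with an edgeR adjusted p of 0.0601. In bulk RNA, fewer cells that express a gene and less RNA per cell cannot be told apart. Without pairs it was -0.25 (SE 0.17, interval -0.65 to 0.15). Without pair 1, ITGB2 passed with pairs (log2 fold change -0.32, edgeR adjusted p = 0.0027), where 0.321% of genes were called lower. That fit had 4 libraries. The fit gave -0.25 without pair 2 (edgeR adjusted p = 0.308) and -0.22 without pair 3 (edgeR adjusted p = 0.0622). With no pairs and 1 library left out, the log2 fold change of ITGB2 ran from -0.41 without PTX4-OE replicate 1 to -0.14 without PTX4-OE replicate 3.

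ITGAL, the LFA-1 alpha chain (ENSG00000005844.19, chromosome 16, 30472658 to 30523567, plus strand), was slightly higher in PTX4-OE at each number. It stood at 322, 312 and 417 CPM in EV and at 327, 325 and 432 in PTX4-OE, with number 3 high in both groups. The log2 difference was 0.020, 0.059 and 0.049 in the pairs, and the fit with pairs gave 0.043 with an interval of -0.061 to 0.15. A difference of ITGAL the size of that of ITGB2 lay outside this interval. It lay inside the wider interval of ITGAL without pairs, -0.35 to 0.43.

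ITGAX, the p150,95 alpha chain known from monocytes and dendritic cells (ENSG00000140678.17, chromosome 16, 31355134 to 31382999, plus strand), stood at 24.4, 29.6 and 43.3 CPM in EV. In PTX4-OE it was at 16.2, 25.9 and 41.6 CPM, so that the groups overlapped almost wholly while each pair differed downwards. By pair the log2 difference was -0.59, -0.19 and -0.056. The fit with pairs gave -0.26 (SE 0.082, interval -0.43 to -0.084, edgeR adjusted p = 0.312), and that without pairs -0.21 with an interval of -1.05 to 0.62. Pair 1 holds PTX4-OE replicate 1, the library with the low mitochondrial share, whose part in the result was not tested; without pair 1 the fit with pairs gave -0.11. Without EV replicate 3 or PTX4-OE replicate 1 and with no pairs, the sign turned (0.051 and 0.067). Without pair 3, ITGAX passed (-0.39, edgeR adjusted p = 0.0014), where 0.96% of genes were called lower.

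ITGAM (ENSG00000169896.18, chromosome 16, 31259967 to 31332892, plus strand), a marker of maturing monocytic cells, stood at 11.8, 9.26 and 8.71 CPM in EV and 11.5, 10.2 and 7.63 in PTX4-OE. The groups overlapped, and the pairs differed in sign at -0.037, 0.14 and -0.19. The fit with pairs gave -0.030 with an interval of -0.24 to 0.18.

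For ITGB1 and its partners the interval with pairs included 0. ITGB1 (ENSG00000150093.20, chromosome 10, 32887273 to 33005792, minus strand) stood at 184, 155 and 135 CPM in EV and at 198, 152 and 149 in PTX4-OE, and with pairs its log2 fold change was 0.075 with an interval of -0.032 to 0.18. ITGA4 (ENSG00000115232.14, chromosome 2, 181457202 to 181538940, plus strand) stood at 203, 188 and 129 CPM in EV and at 200, 171 and 141 in PTX4-OE. Both groups were lowest in number 3, and the pairs of ITGA4 differed by -0.022, -0.14 and 0.12, with an interval of -0.13 to 0.10 in the fit with pairs. ITGA5 (ENSG00000161638.11, chromosome 12, 54395261 to 54419266, minus strand) stood at 237, 197 and 184 CPM in EV and 230, 187 and 174 in PTX4-OE. Its pairs were alike at -0.048, -0.072 and -0.082, and the fit with pairs gave -0.067 with an interval of -0.17 to 0.033. For 9 of the 10 members the interval with pairs lay within 1.5-fold in either direction, ITGB7 being the exception. The share of all genes within that limit was not counted. Without pairs the intervals of ITGB2 (down to -0.65) and ITGAX (down to -1.05) also passed it. In that fit 8 of the 10 members and 75.5% of all genes had an interval within 2-fold.

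ITGB7, the partner of ITGA4 in the gut-homing receptor (ENSG00000139626.16, chromosome 12, 53191323 to 53207282, minus strand), was close to the limit of detection. Its expected counts were 54.03, 33 and 13 in EV and 36.16, 15.01 and 2 in PTX4-OE. The PTX4-OE library held fewer at every number, and PTX4-OE replicate 1 still held more than EV replicates 2 and 3. The ratio of PTX4-OE to EV, scaled for depth, was 0.59 in pair 1 (exact 95% binomial interval 0.37 to 0.91), 0.43 in pair 2 (0.22 to 0.81) and 0.13 in pair 3 (0.015 to 0.59), intervals that cover counting error only. The log2 fold change was -1.23 with pairs (SE 0.39, interval -2.05 to -0.40, edgeR adjusted p = 0.312) and -1.07 without (interval -3.15 to 1.02). ITGB7 overlaps ZNF740 by 3820 bases on the opposite strand, which held 853 to 1362 counts and a log2 fold change of 0.13 with pairs. The sources used here do not say whether counting used the strand, so the reads of the shared part cannot be told apart.

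The deposited counts and FPKM together imply the gene length used for scaling in each library. It varied by 0.34% to 5.22% between libraries for the other 9 members. For ITGB7 it was 2507, 2528 and 1894 bases in EV and 2523, 2542 and 1790 in PTX4-OE. Both libraries of number 3 were thus scaled to a shorter ITGB7 than the other 4, so its TPM in these 2 stands higher against its counts. The value for PTX4-OE replicate 3 rests on 2 counts and an FPKM of 0.03, given to 2 decimals.

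PECAM1, which binds itself across cell contacts and carries inhibitory tyrosine motifs (ENSG00000261371.6, chromosome 17, 64319415 to 64413776, minus strand), stood at 30.9, 26.6 and 26.3 TPM in EV. In PTX4-OE it stood at 25.5, 21.8 and 25.3 TPM, and every PTX4-OE library was below every EV library. The share of all genes whose groups were apart was not counted in TPM and was 4.12% in normalised CPM. In normalised CPM, at 161, 141 and 130 in EV against 131, 111 and 121, the groups met: PTX4-OE replicate 1 was just above EV replicate 3. The log2 difference was -0.30, -0.34 and -0.095 in the pairs. With pairs the log2 fold change was -0.25 (SE 0.054, interval -0.36 to -0.13), 15.6% lower, with an edgeR adjusted p of 0.0889. Without pairs it was -0.25 with an interval of -0.53 to 0.031. Without pair 3 PECAM1 passed (-0.33, edgeR adjusted p = 6.486e-05), where 0.96% of all genes were called lower. The fit with pairs gave -0.21 without pair 1 (edgeR adjusted p = 0.129) and -0.20 without pair 2 (edgeR adjusted p = 0.491). With no pairs and 1 library left out, its log2 fold change ran from -0.32 without EV replicate 3 to -0.17 without EV replicate 1.

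PXN (ENSG00000089159.17, chromosome 12, 120210439 to 120265771, minus strand) was the 1 member with a higher level in PTX4-OE and an unadjusted p under 0.05 with pairs. It stood at 26.6, 28.4 and 31.6 CPM in EV and at 33.7, 31.7 and 33.6 in PTX4-OE. The lowest PTX4-OE library was just above the highest EV library, so the groups did not overlap, which held for 1 of 10 members and 4.12% of all genes; in TPM they did overlap. The log2 difference was 0.34, 0.16 and 0.088 in the pairs. With pairs the log2 fold change was 0.20 (SE 0.064, interval 0.059 to 0.33, edgeR adjusted p = 0.336), 14.5% higher, and without pairs 0.19 (interval -0.051 to 0.44). Without pair 1 the fit with pairs gave 0.12, with an interval of -0.021 to 0.27 that included 0. It gave 0.21 without pair 2 (interval 0.039 to 0.39) and 0.24 without pair 3 (interval 0.081 to 0.40). PXN had fractional counts in all 6 libraries and overlaps PXN-AS1 by 2795 bases on the opposite strand, which stood at 10.2 ± 1.72 TPM in EV and 9.33 ± 1.76 in PTX4-OE (SD, n = 3 each).

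**Figure D3:**
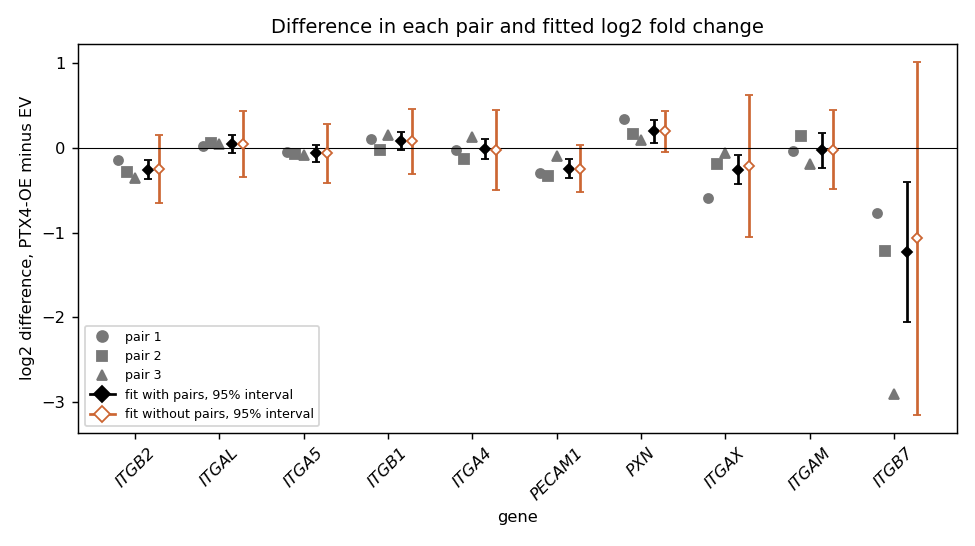
Log2 difference of PTX4-OE minus EV for each gene: grey symbols are the 3 numbered pairs, filled diamonds the edgeR fit with pairs and open diamonds the fit without, with 95% intervals. With pairs the intervals of ITGB2, PECAM1, ITGAX, ITGB7 and PXN exclude 0 before adjustment over all genes, and without pairs all 10 include it.

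In all 3 pairs ITGA5, ITGAX, ITGB2, ITGB7 and PECAM1 were lower and ITGAL and PXN higher, while ITGA4, ITGAM and ITGB1 were mixed. Of all genes tested, 14.2% were lower and 16.4% higher in all pairs.

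The ratio of partner chains is a measure of balance within 1 library. ITGAL stood at 0.52, 0.60 and 0.86 of ITGB2 in EV replicates 1 to 3 and at 0.58, 0.76 and 1.14 in PTX4-OE, in TPM. The ratio was higher in PTX4-OE at each number and high in both libraries of number 3, so the groups overlapped (log2 difference 0.30, exact two-sided permutation p = 0.60). That difference was 0.042 without PTX4-OE replicate 3, 0.15 without EV replicate 1, 0.51 without EV replicate 3 and 0.53 without PTX4-OE replicate 1. ITGAM stood at 0.019 to 0.020 of ITGB2 in EV and at 0.022 to 0.025 in PTX4-OE, with no overlap (log2 difference 0.23, exact permutation p = 0.10). ITGA5 stood at 1.11 to 1.20 of ITGB1 in EV and 1.02 to 1.08 in PTX4-OE, also apart (log2 difference -0.14, exact permutation p = 0.10). The smallest p that 3 against 3 allows is 0.10, and adjusted over the 6 ratios both were at 0.30, so neither passed. The ratio of ITGA4 to ITGB1 was 0.53 to 0.66 in EV and 0.52 to 0.62 in PTX4-OE, and that of ITGAX to ITGB2 differed by 0.016 on the log2 scale. ITGA4 exceeded ITGB7 by 47.8-fold to 100.0-fold in EV and by 78.6-fold, 144-fold and 756-fold in PTX4-OE, the last resting on 2 counts of ITGB7.

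**Figure D4:**
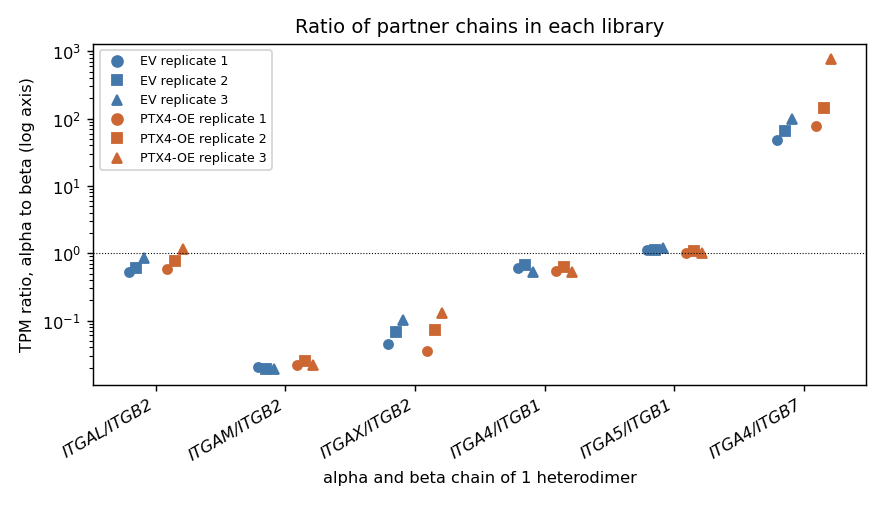
TPM ratio of alpha to beta chain (log axis) for 6 integrin heterodimers in each library, with a dotted line at 1. ITGA5 and ITGB1 lie near 1 throughout, ITGAM is at 0.019 to 0.025 of ITGB2, and ITGA4 exceeds ITGB7 in every library, most in PTX4-OE replicate 3.

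Around these genes, 94 others of the integrin pathway were listed by role, of which 79 were tested and 0 called with or without pairs by edgeR. With pairs, 6 had an unadjusted p under 0.05 and a higher level and 7 a lower one, against 4.36% and 4.43% of all genes. Without pairs the counts were 1 and 1, against 0.743% of all genes in either direction. Their median log2 fold change with pairs was 0.022, against 0.0053 for all genes.

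Among the other alpha chains (10 of 13 tested), ITGA7, a laminin receptor chain best known from muscle, was the most abundant at 21.8 ± 0.57 TPM in EV and 20.3 ± 0.37 in PTX4-OE (SD, n = 3 each), a log2 fold change of -0.14 with pairs (edgeR adjusted p = 0.410). Its level was thus above those of ITGAX and ITGAM. ITGA9 was at 0.50 ± 0.13 and 0.74 ± 0.26 TPM, with a log2 fold change of 0.61 (SE 0.16, edgeR adjusted p = 0.196 with pairs). ITGA1, ITGA8 and ITGAD, and of the beta chains ITGB3, ITGB6 and ITGB8, were too low to test. ITGB5 was the most abundant other beta chain at 3.36 ± 0.39 and 3.04 ± 0.67 TPM.

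Of 13 ligands 8 were tested. F11R (JAM-A), a ligand of LFA-1, stood at 19.9 ± 2.51 TPM in EV and 19.6 ± 2.78 in PTX4-OE. ICAM2, also a ligand of LFA-1, was at 12.8 ± 1.26 and 15.1 ± 0.74 TPM, with a log2 fold change of 0.22 (interval 0.0081 to 0.43, edgeR adjusted p = 0.548 with pairs). VCAM1, the ligand of VLA-4, was too low to test.

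Of 13 activators, which switch integrins to high affinity, 12 were tested. RAP1B, a small GTPase upstream of talin, was the most abundant at 138 ± 9.01 and 147 ± 17.02 TPM. FYB1, an adaptor of this route, stood at 1.11, 1.15 and 1.20 TPM in EV and 0.79, 0.95 and 0.82 in PTX4-OE. Its log2 fold change was -0.50 with pairs (SE 0.15, edgeR adjusted p = 0.300). With pairs, 2 activators were higher at an unadjusted p under 0.05 and 1, FYB1, lower, against 4.36% and 4.43% of all genes. The higher ones were FERMT3 (log2 fold change 0.16, edgeR adjusted p = 0.307) and TLN2 (0.14, edgeR adjusted p = 0.353). All 4 restrainers were tested: SHARPIN, which holds alpha tails inactive, stood at 75.7 ± 5.82 and 73.0 ± 3.13 TPM, and FLNA, which competes with talin, at 4.48 ± 0.37 and 5.14 ± 0.085.

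Of 29 paxillin relatives and focal adhesion proteins 27 were tested. ACTN1, which crosslinks actin, stood at 193 ± 11.1 and 208 ± 18.0 TPM. ZYX (zyxin), a LIM protein of focal adhesions like PXN, stood at 205 ± 4.04 and 191 ± 13.1 TPM, with a log2 fold change of -0.14 (interval -0.26 to -0.032, edgeR adjusted p = 0.408 with pairs). The signs of ZYX and PXN thus differed. With pairs, 2 of this group, ZYX and LPXN, were lower at an unadjusted p under 0.05 and 1, PARVA, higher, against 4.43% and 4.36% of all genes. LPXN had a log2 fold change of -0.19 (interval -0.37 to -0.0093, edgeR adjusted p = 0.538) and PARVA of 0.22 (edgeR adjusted p = 0.568).

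CD38, an ectoenzyme and ligand of PECAM1, stood at 10.7, 10.7 and 9.57 TPM in EV and 8.99, 8.96 and 9.07 in PTX4-OE. Its log2 fold change was -0.23 (SE 0.058, edgeR adjusted p = 0.153 with pairs). Like PECAM1 and ITGAX it passed without pair 3 (-0.30, edgeR adjusted p = 0.0088), where 0.96% of all genes were called lower. CD99, which acts after PECAM1 in transmigration, stood at 112 ± 10.8 and 112 ± 14.4 TPM. Among lateral partners BSG was the most abundant at 338 ± 49.7 and 358 ± 55.5 TPM, and CD9, a tetraspanin, had a log2 fold change of 0.37 (interval -0.16 to 0.90) with pairs. Of the 11 tested, 0 were higher at an unadjusted p under 0.05 with pairs and 2 lower, against 4.36% and 4.43% of all genes. The lower ones were PLAUR (log2 fold change -0.23, edgeR adjusted p = 0.1005) and CD53 (-0.13, edgeR adjusted p = 0.537).

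The genes whose pattern over the 6 libraries was most like that of PECAM1, by root mean square difference of log2 CPM around each gene's mean among 9892 genes with a mean of at least 10 CPM, were TNFAIP3 (0.038), FKBP14 (0.061) and CSTB (0.066). TNFAIP3, an inhibitor of NF-kB signalling, had a log2 fold change of -0.22 with pairs (edgeR adjusted p = 0.221). Nearest to PXN were SP2 (0.036), CLCN3 (0.038) and HOOK3 (0.042), of which SP2, a zinc finger transcription factor, had a log2 fold change of 0.17 (edgeR adjusted p = 0.390). The match took in the difference between the groups, so fold changes like those of PECAM1 and PXN follow from the choice of these genes.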

How the data were processed

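RNA with poly(A) tails was sequenced as read pairs, per the labels' protocols. The authors deposited expected counts, made with STAR and featureCounts on GRCh38 per the submitters' processing notes; 7.94% of values are not whole, and no source used here names the step behind the fractions. They also deposited TPM, in which the authors corrected for gene length and set each library to 1000000, and FPKM, which the authors scaled for length and depth. Rows of 34 gene pairs shared by X and Y were summed.

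Rounded counts entered edgeR 4.0.16 (R 4.3.3) with filterByExpr, TMM and the quasi-likelihood F test, and Benjamini-Hochberg adjusted p under 0.05 over all genes made a call. Each standard error is the fold change over the root of F. Libraries of equal number correlated in their deviations from the group mean (0.802, 0.265 and 0.839, all over 0.1), so numbers were taken as pairs; EV replicate 2 with PTX4-OE replicate 1 also reached 0.252. The edgeR p-values rest on the spread between these samples, with each gene's variance drawn towards a value shared across genes. They do not measure the spread of 1 gene alone. Alternatives used DESeq2 1.42.0 and limma 3.58.1 on log2 TPM. The fit was also run on simulated counts. These had the spread of the fit with pairs (edgeR coefficient of variation 0.055) and no difference between replicate numbers. In the real data the fit without pairs had 0.217, so that run cannot show which changes it could find here. No library repeated another (chi-square per degree of freedom at least 6.54).

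The members and lists were chosen with earlier results of these data known. Named were all members and, per role group, the most abundant gene and that of smallest p without pairs (ITGA9, ITGB5, ICAM2, FYB1, FLNA, ZYX, CD38 and CD9). Pathway genes with an unadjusted p under 0.05 with pairs were named too, which added FERMT3, TLN2, LPXN, PARVA, PLAUR and CD53. Names, coordinates and tails came from GENCODE release 44. Other marker lists summed to 1.78 to 3.28 TPM (T cell), 3.21 to 5.20 (B cell), 39.6 to 52.1 (NK cell, nearly all NCAM1), 1.38 to 3.38 (megakaryocyte and platelet), 0 to 0.24 (erythroid) and 0.36 to 0.67 (fibroblast).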

Additional observations from a re-analysis of the deposited data

How the results depend on the processing

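The count of members called was 0 under the replicate block, RLE size factors, DESeq2, no filter and both log2 TPM scales, and 0 to 2 when libraries or pairs were left out; the 2 calls without pair 3 were ITGAX and PECAM1 and the 1 without pair 1 was ITGB2. Pathway genes called ran from 0 to 3 (without pair 3: CD38, CD82 and PLAUR, all lower). Of all genes, 0.96% were called lower without pair 3 and 0.321% without pair 1. Genes called higher numbered 1 without pairs, namely PTX4. They numbered 5 with the replicate block and 2 on log2(TPM + 1), and 30, 8 and 41 without pair 1, 2 or 3 (1 to 41 over all such fits). Genes called lower numbered 0 without pairs, 42 with the replicate block, 2 with DESeq2 and 1 with no filter, and 58, 15 and 167 without pair 1, 2 or 3 (0 to 167 over all such fits). The replicate block changed no member's call. On log2(TPM + 1) and log2(TPM + 0.1), ITGA4 turned to 0.025 and 0.026 and ITGAM to 0.0068 and 0.0079. The log2 ratio of ITGAX to ITGB2 was -0.017 in normalised CPM and ran from -0.43 to 0.51 without 1 library. Leaving out libraries or pairs, log2 fold changes ran from -0.20 to 0.095 for ITGA4 (0.052 without pair 2), -0.18 to 0.038 for ITGA5, -0.11 to 0.19 for ITGAL, -0.14 to 0.12 for ITGAM (0.034 without pair 3), -0.63 to 0.067 for ITGAX and -0.058 to 0.19 for ITGB1. With the replicate block ITGA5 (-0.075 to -0.064), ITGAL (0.027 to 0.056), ITGAX (-0.39 to -0.11) and ITGB1 (0.027 to 0.13) kept their sign whichever pair was left out, and turned only without pairs, while ITGA4 and ITGAM turned in both fits. ITGB2 (-0.41 to -0.14), ITGB7 (-2.04 to -0.53), PECAM1 (-0.33 to -0.17) and PXN (0.12 to 0.26) kept their sign in all these fits. The cause was not tested. ITGB7 fell below a mean of 1 TPM and has no value on the TPM scales. Fits without a pair hold 4 libraries with 1 residual degree of freedom, so their adjusted p rest on variances shared across genes.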
